A study of Mus musculus with 19 samples.

Results

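Control CD8 T cells recovered after adoptive transfer were compared with naive CD8 T cells. The comparison rests on 6 of the 19 arrays of the study, chosen by their group labels alone. The 2 arrays after transfer carry T cells that had been activated by their cognate antigen for 72 h, injected into congenic hosts and recovered from spleen and lymph nodes on day 18 (array 30) and day 120 (array 32). The 4 naive arrays (33, 34, 35 and 36) carry naive peripheral CD8 T cells. All 6 came from TCRP1A transgenic Rag-1-/- mice on the B10.D2 background, so the donors' T cells carry 1 transgenic receptor, for the tumour antigen P1A, and the donors make no other T or B cells, and no sample of these groups was given Stat5ca, the active form of Stat5 used elsewhere in the study. The labels give neither the hosts' own genotype, nor the animals' age, nor whether an array holds 1 animal or a pool. The p-values therefore measure only the spread between arrays within groups, over the 16 arrays fitted together, and that spread may be technical. The study's design text puts the recovery of this group later than the day 18 that labels array 30; the day on the label is used here. Each array received 0.125 ug of RNA, and the RNA integrity number (10 for intact RNA) was 8 on both arrays after transfer and 8 or 9 on the naive arrays.

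When a naive CD8 T cell meets its antigen it divides and becomes a cytotoxic effector; most effectors die when the antigen is cleared, and the survivors persist as memory cells. Memory cells are held by the cytokines IL-7 and IL-15, which signal through Il7r and Il2rb, and carry the T-box transcription factors T-bet (Tbx21) and Eomes at higher levels than naive cells, so that they can make interferon gamma and granzymes soon after a second encounter. Naive cells in turn are known for factors such as Lef1 and for the receptor Ccr7, which takes them to lymph nodes. Tcf7 was not analysed here.

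Values are deposited log2 levels, 1 per gene for 19938 genes, so that a difference of 1 is 2-fold. A level at or below 7.30, the 95th percentile of the 1194 olfactory and vomeronasal receptor genes, is called background here. A gene was called, and is said to have risen or fallen, when its Benjamini-Hochberg adjusted p in limma's moderated test over all genes was below 0.05.

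The 6 arrays differed in how much signal of other blood cells they carried, and this moved with the groups. The mean of the 12 measured T-cell identity genes lay between 11.54 and 12.52 on all 6 arrays, with Cd8a at 12.68 and 12.46 after transfer and between 12.97 and 13.27 in naive cells. The mean level of 24 macrophage and monocyte markers was 12.44 on day 18 and 12.37 on day 120, against 7.77, 11.73, 8.51 and 11.60 on naive arrays 33, 34, 35 and 36. The mean of 14 neutrophil markers was 12.39 and 11.76 after transfer and 6.99, 12.35, 7.63 and 12.20 on the naive arrays. Naive arrays 34 and 36 thus resembled the arrays after transfer in these markers, while naive arrays 33 and 35 carried little of them. The mean of 15 B-cell markers stayed near background, between 7.26 and 7.58 on the naive arrays and at 7.68 and 7.62 after transfer, with the defining B-cell genes Cd79a, Ms4a1 and Pax5 at or under 7.34 on all 6 arrays. Xist, which is made from the inactive X of female cells, was at 12.22 on day 18 and 6.45 on day 120 and between 12.65 and 12.82 on the naive arrays. The Y-linked Eif2s3y was at 9.64 and 10.23 after transfer, at 7.87 on naive array 35 and between 4.75 and 5.08 on the other naive arrays. Day 18 and naive 35 therefore carried both signals and day 120 the Y-linked one alone. The part of such cells in the results was not tested beyond the fits given below.

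**Figure D1:**
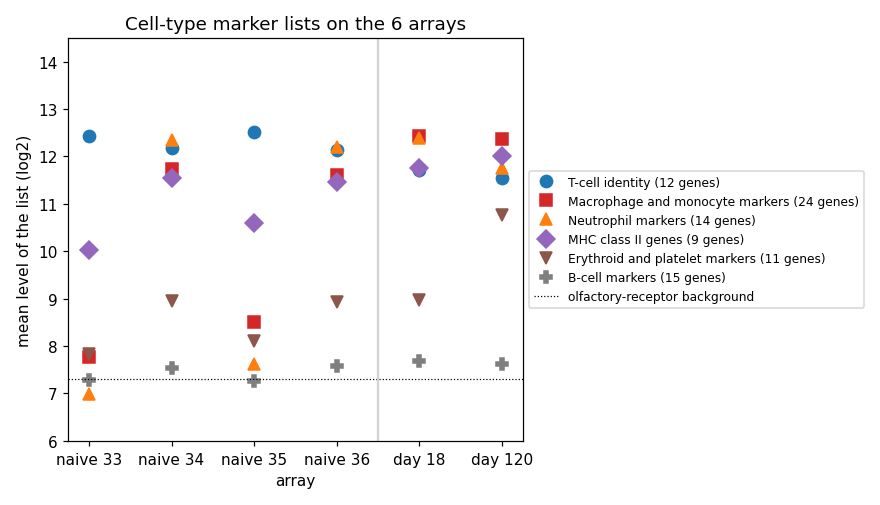
Mean log2 level of 6 cell-type marker lists (vertical axis) on each of the 6 arrays (horizontal axis); the dotted line is the olfactory-receptor background of 7.30. T-cell identity genes were lowest on day 18 (11.72) and day 120 (11.54), and the macrophage list was highest there, with naive arrays 34 and 36 nearest to them.

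Over all genes, 1583 rose after transfer, or 7.94% of those tested, and 1955 fell, or 9.81%. Large changes were mostly rises, with 647 genes at least 2-fold up and 95 at least 2-fold down. The median change of all genes was -0.12. The counts given below for each gene list stand beside these shares and this median. Because of the marker signal above, each call was also read in 3 further fits: a fit with naive 34 and 36 left out, a fit with naive 33 and 35 left out, and a fit with the macrophage list's level of each array as a covariate. Both arrays after transfer lie above every naive array on that covariate, so the adjusted values extrapolate beyond the naive arrays. In all 3, 352 of the rises (1.77% of genes) and 236 of the falls (1.18%) were called in the same direction, and these are said below to have held. The total of 3538 called genes became 5767 without naive arrays 34 and 36, 1718 without naive 33 and 35, and 673 with the covariate. It was 840 without the day 120 array and 1586 without the day 18 array. The largest move came from the spread: with only these 6 arrays in the fit, so that the changes are the same but the spread rests on 4 degrees of freedom among samples, 323 genes were called. Of the genes named here, 49 lost their call in that fit and none gained one, and the main ones are named in each paragraph. Counts per list are given below also for fits without 1 array, mainly where these move them by more than 1.5 times. Not every such move is listed. For the immediate-early list the moves are put in words.

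T-bet and its known targets Ifng and Cxcr3, which belong to the T helper 1-type programme, rose together on both arrays, with no overlap between the groups. Tbx21 was at 11.24 on day 18 and 11.01 on day 120, against 8.10, 8.63, 8.63 and 8.81 in naive cells, a difference of 2.58 ± 0.15 (SE; n = 2 against 4; adjusted p = 3.75e-07), or 5.99-fold. Ifng, the cytokine that activates macrophages and raises antigen presentation, was at 11.72 and 11.93 against 7.92, 8.38, 8.57 and 8.47. That is the third largest rise of any called gene, 3.49 ± 0.31 (adjusted p = 1.54e-05), or 11.3-fold. Cxcr3, the receptor for interferon-induced chemokines at inflamed sites, was at 11.86 and 11.41 against 9.00 to 9.41 (2.39 ± 0.19, adjusted p = 1.09e-05). All 3 rises held, at 2.37, 3.36 and 2.14 with the macrophage level as covariate, and were called with only the 6 arrays.

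Of 16 measured type 1 effector factors, 10 rose and 2 fell, and the list's median change was 1.13 against -0.12 over all genes. Calls in the list numbered 5 without the day 18 array and 3 without the day 120 array. Of the rises, 3 held (Tbx21, Maf and Hopx); with only the 6 arrays Tbx21 and Hopx were called and Maf, Eomes and Bhlhe40 were not. Maf, a factor of cytokine control, was at 11.59 and 11.45 against 8.47, 10.21, 8.70 and 10.02, with naive 34 and 36 between the others and the arrays after transfer (2.17 ± 0.38, 1.08 with the covariate). Hopx, a small homeodomain protein that persists in type 1 memory cells, was at 9.70 and 9.56 against 8.43 to 8.73 (1.03 ± 0.15, adjusted p = 0.000807). Eomes, the T-box factor tied to memory and IL-15 responsiveness, was at 10.47 on day 18 and 9.65 on day 120 against 8.34 to 8.98. Both arrays lay above every naive array, but the call was marginal (1.36 ± 0.44, adjusted p = 0.0447) and was lost without the day 18 array (0.95) and without the day 120 array (1.77), and without naive 33 (1.25), 35 (1.46) or 36 (1.34). Prdm1, which encodes the effector factor Blimp-1, rose by 1.53 ± 0.38 (adjusted p = 0.0146) and lost the call without either of these arrays (1.60 without day 18, 1.46 without day 120). Bhlhe40, a cofactor of interferon gamma production, rose by 2.21 ± 0.45 (10.56 and 11.38 against 7.78 to 9.48) but did not hold, and lost the call without the day 120 array (1.80). Runx3, the factor of the CD8 lineage, was at 11.20 and 11.36 against 11.42 to 12.13, a marginal fall of 0.46 ± 0.15 (adjusted p = 0.0489) that was 0.22 above naive counted from T-cell identity (defined below). Its call was lost without day 18 (-0.38) or day 120 (-0.53), and without naive 33 (-0.32) or 35 (-0.41). Stat4, which relays IL-12, was at 12.52 and 12.38, within the naive range of 12.14 to 12.62 (0.03 ± 0.13, adjusted p = 0.867).

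Among 20 T-cell cytokines and chemokines 7 rose and 1 fell, with a median of 0.41, and 4 genes of the list were called without the day 18 array. Ifng, Ccl5 and Tgfb1 held, and of these Tgfb1 was not called with only the 6 arrays. Ccl5, a chemokine that memory CD8 cells store as message, was at 13.91 and 13.88 against 11.56, 12.57, 12.60 and 12.34 (1.63 ± 0.24, adjusted p = 0.000693). Tgfb1 was at 12.19 and 12.13 against 11.20 to 11.67 (0.73 ± 0.11). Ccl3, which macrophages and neutrophils also make, rose by 2.72 ± 0.72 but by 0.89 with the covariate, where it was not called, and lost the call without the day 18 array (2.39) and without the day 120 array (3.05). Tnf was at 10.25 and 9.94 against 9.31 to 9.56 without a call (0.70 ± 0.24, adjusted p = 0.0562). Il2 stayed under background on all 6 arrays.

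The cytotoxic genes divided. Of 24 measured, 11 rose, none fell and 13 were not called; the median change was 0.22, and 6 were called without day 18 and likewise without day 120. Fasl, Gzmb and Serpinb9 held, and of these Fasl alone was called with only the 6 arrays. Fasl, the ligand that triggers death through Fas, was at 9.17 on day 18 and 10.63 on day 120, against 7.08 to 7.43 in naive cells. Its rise was 2.68 ± 0.31 (adjusted p = 0.000163), and the day 120 array was 1.46 above the day 18 array. Gzmb, a granule protease of effector cells, was at 10.42 and 10.32 against 6.86, 8.75, 8.13 and 8.37 (2.34 ± 0.35, adjusted p = 0.000922; 1.67 with the covariate). Serpinb9, an inhibitor that protects the cell from its own granzyme B, rose by 0.84 ± 0.20 (adjusted p = 0.0127) and lost the call without the day 120 array (0.59, adjusted p = 0.196). Slamf7, a receptor of cytotoxic cells, was at 11.13 and 11.26 against 8.62 to 10.41 (1.45 ± 0.36) and lost the call without day 18 (1.51) or day 120 (1.38). Perforin, the pore-forming protein of the same granules, showed no such change: Prf1 was at 10.31 and 9.86 against 9.96 to 10.23 (0.02 ± 0.16, 95% interval -0.32 to 0.36). Gzma was at 9.04 and 8.37 against 8.18, 10.17, 9.88 and 9.91, and Gzmk at 8.21 and 8.33 against 8.38 to 8.58, both without a call (adjusted p = 0.163 and 0.625). Without naive array 33, its lowest naive array, Gzma was called lower (-1.28).

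NK-type receptors, which let CD8 T cells sense stressed targets beside their antigen receptor, showed 5 rises, no falls and 13 genes without a call among 18 (median 0.44). The list median was 0.91 without naive 34 and 36, 0.04 without naive 33 and 35, and -0.04 with the covariate. Without day 18, day 120, naive 33 or naive 35 the calls numbered 3, and without 34 or 36 there were 7. The 3 that held all belong to the NKG2 family, and of these Klrc1 was not called with only the 6 arrays. Klrk1, which encodes the activating receptor NKG2D, was at 11.14 and 11.32 against 7.05, 8.88, 8.03 and 8.34. The rise was 3.15 ± 0.33 (adjusted p = 7.26e-05), or 8.91-fold, and 2.43 with the covariate. Klrc1 (inhibitory NKG2A) was at 10.40 and 10.24 against 7.06 to 8.67 (2.35 ± 0.37, adjusted p = 0.00108), and Klrc2 (activating NKG2C) at 9.18 and 9.14 against 6.74 to 7.52 (2.04 ± 0.29, adjusted p = 0.000639). These paralogs are similar in sequence, so signal could be shared between their probes. Klrd1, the CD94 partner chain of NKG2A and NKG2C, was at 11.13 and 11.01, within or just under the naive range of 11.08 to 11.61 (adjusted p = 0.473). Klrg1, a receptor of short-lived effectors, was at 7.11 and 6.88, below the background line, against 6.76 to 8.26 (-0.71 ± 0.41, adjusted p = 0.228). Ncr1, a defining NK-cell gene, was at 9.66 and 9.02 within a naive range of 7.53 to 10.52 (0.03 ± 0.65), and of the 13 NK-cell markers only Eomes was called, against 5 calls without naive 34, 3 without naive 36 and none without day 18, day 120 or naive 35.

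**Figure D2:**
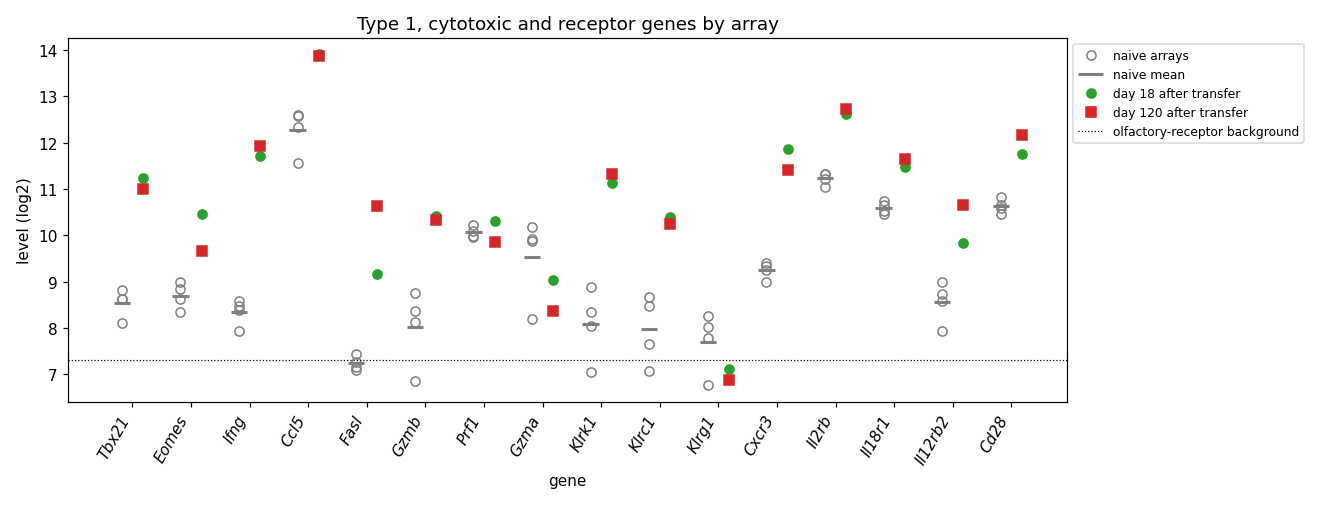
Log2 level (vertical axis) of 16 genes (horizontal axis): open circles are the 4 naive arrays with their mean as a bar, the filled circle is day 18 and the square day 120 after transfer. Tbx21, Ifng, Klrk1, Cxcr3 and Il2rb lay above all naive arrays on both days, while Prf1 (10.31 and 9.86) straddled the naive arrays and Klrg1 lay inside their range.

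Of 26 cytokine receptor chains 12 rose and 5 fell (median 0.14), and 8 were called without day 18 and likewise without day 120. Il2rb, the chain shared by the IL-2 and IL-15 receptors, was at 12.63 and 12.73 against 11.05, 11.22, 11.33 and 11.32 (1.45 ± 0.09, adjusted p = 3.75e-07; 1.37 with the covariate). Il18r1 was at 11.47 and 11.64 against 10.47 to 10.75 (0.95 ± 0.10, adjusted p = 7.26e-05). Il12rb2, the inducible chain of the IL-12 receptor, was at 9.84 and 10.66 against 7.92 to 8.99 (1.70 ± 0.26, adjusted p = 0.000999). These 3 rises held, and Il12rb2 was not called with only the 6 arrays. Their partner chains differed: Il18rap rose by 1.48 ± 0.34 without holding and lost the call without day 18 (1.43) or day 120 (1.53), while Il15ra (-0.14 ± 0.14) and Il12rb1 (-0.33 ± 0.25) were not called. Il7r, high in naive and memory cells alike, was at 13.16 and 13.06 against 12.40 to 12.57, a rise of 0.62 ± 0.20 at an adjusted p of 0.046 that was lost in all 6 fits leaving out 1 array (0.57 without day 18, 0.67 without day 120, 0.59 to 0.64 without 1 naive array). Il2ra, the high-affinity IL-2 receptor chain of freshly activated cells, was at 9.05 and 9.48 within a naive range of 8.04 to 9.65 (adjusted p = 0.167), and without naive array 35 it was called higher (1.07). The IL-15 and IL-2 signal relays Stat5a and Stat5b were within 0.2 of naive cells and not called (-0.14 ± 0.13 and -0.17 ± 0.12). Tgfbr3 fell (8.69 and 8.55 against 9.54 to 9.84; -1.07 ± 0.11), as did Il6st, the shared IL-6 signal chain (11.35 and 11.15 against 12.10 to 12.52; -1.03 ± 0.16), Il21r (-0.84 ± 0.15) and Il27ra (-0.80 ± 0.13). All 4 held, and with only the 6 arrays Il21r and Il27ra were not called. Il6ra, the partner of Il6st, was not called (-0.38 ± 0.18).

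Among 20 chemokine and homing receptors 3 rose (Cxcr3, Gpr183 and Cd44) and 4 fell, with a median of 0.04; 4 were called without day 18 and 2 without day 120. With only the 6 arrays, Cd44, S1pr1, Itgb1, Gcnt1 and St3gal6 of this paragraph lost the call. Ccr9, which takes cells to the small intestine and marks naive CD8 cells leaving the thymus, fell from 12.52, 11.93, 12.64 and 11.83 to 9.32 on day 18 and 10.04 on day 120 (-2.55 ± 0.40, adjusted p = 0.00113). Ccr7, the lymph-node homing receptor, was at 12.83 and 13.25 against 13.06 to 13.46 and was not called (-0.22 ± 0.16, adjusted p = 0.33). S1pr1, which lets cells leave lymph nodes, fell by 0.52 ± 0.13, lost the call without day 18 (-0.46) or day 120 (-0.58) and was not called counted from T-cell identity (0.16). Cx3cr1, a receptor of effector and also of monocyte cells, was at 9.89 on day 18 and 8.57 on day 120, the first above and the second below all naive arrays (8.65 to 9.30), and was not called (0.26 ± 0.32). Gpr183, which positions lymphocytes along oxysterol gradients, was at 11.78 and 12.13 against 10.98 to 11.35 (0.84 ± 0.15) and lost the call without the day 120 array (0.66, adjusted p = 0.0643). Cd44, the adhesion receptor used to sort memory cells, was at 11.48 and 11.34 against 8.15, 10.50, 9.17 and 10.26. Its naive levels had the same order as those of the macrophage list; the rise of 1.89 ± 0.45 was 1.04 without naive 33 and 35 and 0.69 with the covariate, and the call was lost without day 18 (1.82) or without day 120 (1.96). Of 14 integrins 4 rose and 2 fell, and 3 were called without day 18 and likewise without day 120. Itga1, the collagen-binding chain of tissue-resident T cells, was at 8.71 and 8.70 against 6.60 to 7.50 (1.56 ± 0.28) and did not hold. Itgb1 rose (11.31 and 11.16 against 9.17 to 10.29; 1.40 ± 0.22) and Itgae, which binds E-cadherin on epithelium, fell (8.92 and 9.79 against 10.86 to 11.69; -1.77 ± 0.33); both held, but the fall of Itgae was -1.33 without the day 18 array and not called. Of 12 enzymes that build selectin ligands, 4 rose and 1 fell, with 1 called without day 18 and likewise without day 120, and the sialyltransferase gene St3gal6 held (11.06 and 10.63 against 9.78 to 10.12; 0.86 ± 0.13). Gcnt1, which builds the core 2 branch of selectin ligands, rose by 1.83 ± 0.45 (9.75 and 9.63 against 6.60 to 9.01), did not hold, and lost the call without day 18 (1.77) or day 120 (1.89).

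Most genes of naive cells fell, and so did most T-cell identity genes. Of 12 identity genes 11 fell (5 were called without the day 120 array and 5 with only the 6 arrays), with a list median of -0.72, and the list mean fell by 0.68: Cd3e was at 12.81 and 12.77 against 13.22 to 13.56 (-0.59 ± 0.11), Cd8a fell by 0.54 ± 0.11 and Lat by 0.99 ± 0.13. The call of Cd8a was lost without the day 120 array (-0.43), and those of Cd8a and Cd3e with only the 6 arrays. Cd2 was the one identity gene not called (-0.17 ± 0.16). In such bulk RNA, fewer T cells in the sample and less of these messages per T cell cannot be told apart. The levels were therefore also counted from the mean of these 12 genes on each array, a measure added after the data were seen, which moves every gene up by 0.68. Counted this way 92 genes (0.461% of those tested) were lower after transfer. All 92 had also fallen without it, which the upward shift makes nearly certain, so this is no separate support.

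Trat1, an adaptor that stabilises the T-cell receptor at the cell surface, fell furthest of all called genes, from 9.24, 8.81, 9.41 and 8.42 to 5.33 and 5.52 (-3.55 ± 0.34, adjusted p = 3.58e-05). Both values after transfer are under background, so the fall is also given from the background line, where it was -1.68. Pcsk1, a prohormone convertase, went from 9.68 to 10.49 down to 6.88 and 7.05 (-3.10 ± 0.31), also under background. Dntt, the enzyme that adds bases at receptor gene junctions in thymocytes, fell from 9.06 to 9.96 down to 6.52 and 6.69 (-2.91 ± 0.61, adjusted p = 0.00591). Its call was lost with the covariate and without the day 120 array (-2.99, adjusted p = 0.0541). Tox, a nuclear factor of thymic selection that is later tied to exhaustion, was at 8.78 and 8.21 against 10.93, 10.45, 10.92 and 10.48 (-2.20 ± 0.18, adjusted p = 1.09e-05). The remaining genes among the 12 largest falls that held were Slc16a5 (-2.74), Trib2 (-2.10), the DNA demethylase gene Tet1 (-2.05), Tspan32 (-1.98), Ramp1 (-1.96), Igfbp4 (-1.95), Amigo2 (-1.85) and the amino-acid transporter gene Slc6a19 (-1.80). By the rule that chose them, all of these 12 lay below all naive arrays on both days. Counting from the T-cell identity mean moves every gene up by the same amount, and left changes from -1.12 for Slc6a19 to -2.87 for Trat1.

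Of the 22 measured naive and central-memory genes 14 fell and 1, Il7r, rose; 7 were called without the day 120 array. The list's median of -0.48 is nearer to 0 than the -0.72 of the T-cell identity genes. Lef1, a partner of beta-catenin that keeps the naive programme, was at 11.01 on day 120 and 0.02 lower on day 18, against 12.58, 12.23, 12.61 and 12.32, with both arrays below all naive ones (-1.43 ± 0.13, adjusted p = 1.77e-05; -0.75 counted from T-cell identity). Myb fell by 1.07 ± 0.18 and Bach2, a repressor that restrains effector genes, by 0.84 ± 0.15; both held, but counted from T-cell identity neither was called (-0.39, adjusted p = 0.139, and -0.16, adjusted p = 0.443). Foxo1, which drives Il7r and Klf2, fell by 0.56 ± 0.13, was 0.12 above naive counted from T-cell identity, and lost the call without the day 120 array (-0.47). Klf2, the factor that keeps cells in circulation, was at 11.63 and 11.89 within or just above the naive range of 11.46 to 11.88 (0.13 ± 0.22, adjusted p = 0.68). Of the list's members Lef1, Tox, Igfbp4, Ccr9, Myb and Bach2 held.

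**Figure D3:**
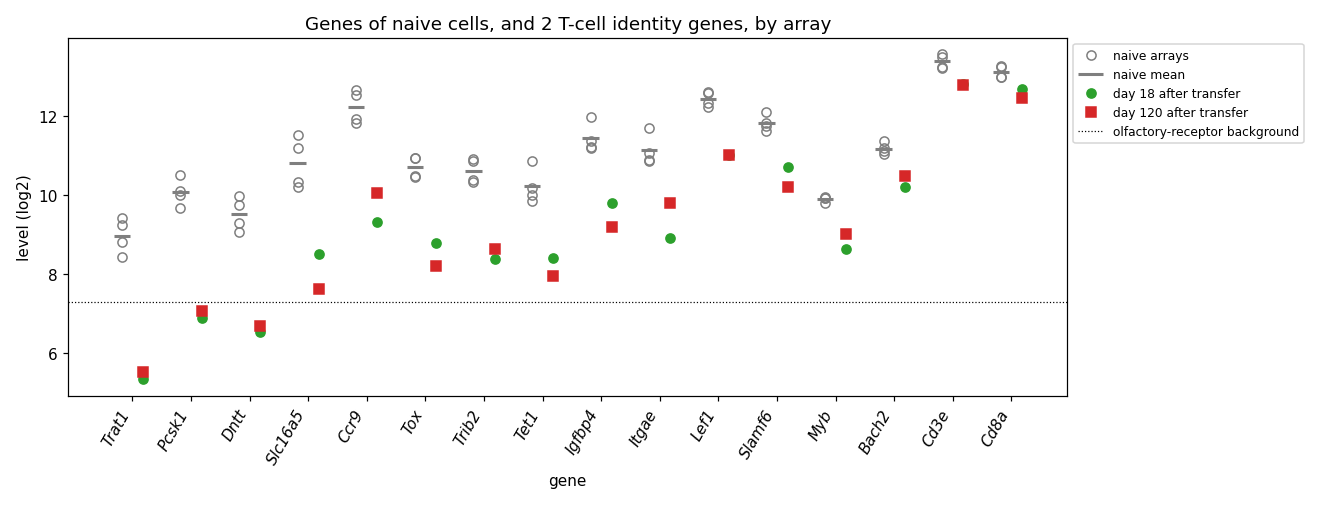
Log2 level (vertical axis) of 14 genes that fell and of the identity genes Cd3e and Cd8a (horizontal axis), drawn as in the plot of the rises. Trat1, Pcsk1 and Dntt lay under the background line on both days after transfer, and the gap between the groups was far wider for Trat1, Ccr9 and Tox than for Cd3e and Cd8a.

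Most genes of the T-cell receptor pathway were not called. Of 29 measured, 4 rose, 6 fell and 19 were not called (median -0.16), and 5 were called without the day 120 array. The 3 falls that held were Plcg1, the phospholipase that starts the calcium signal (10.64 and 10.67 against 11.23 to 11.74; -0.83 ± 0.13), the kinase gene Prkcq (-0.64 ± 0.10) and the diacylglycerol kinase gene Dgka (-0.64 ± 0.08). Plcg1 and Prkcq were not called with only the 6 arrays. All 3 were within 0.15 of naive cells counted from T-cell identity and not called there. The rises were the phosphatase genes Dusp1 (1.44 ± 0.29), Dusp5 (11.19 and 11.97 against 10.01 to 10.36; 1.40 ± 0.17), Dusp6 (0.84 ± 0.16) and Ptpn22 (0.33 ± 0.07), of which Dusp5 held. Dusp1 (1.40, adjusted p = 0.0581) and Ptpn22 (0.28) lost the call without the day 120 array. Among 16 costimulatory receptors 2 rose and 6 fell, with 4 calls without day 18 and 5 without day 120. Cd28, the main costimulatory receptor, was at 11.75 and 12.17 against 10.45 to 10.83 (1.33 ± 0.12, adjusted p = 1.53e-05), and 1.36 with the covariate. Slamf6 fell (10.71 and 10.20 against 11.61 to 12.09; -1.35 ± 0.26) and held, though not without the day 120 array (-1.10, adjusted p = 0.0728). Cd27 fell by 0.76 ± 0.17, which was -0.08 counted from T-cell identity and not called without the day 120 array (-0.51).

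Of 15 inhibitory receptors 6 rose and 1 fell, with a median of 0.76. Calls numbered 4 without day 18, naive 33 or naive 35, and 2 without day 120. The rise that held was Cd200r1 (8.91 and 8.25 against 6.79 to 7.67; 1.37 ± 0.23), not called with only the 6 arrays. The fall was Cd5, a brake on receptor signals (10.46 and 10.33 against 11.11 to 11.52; -0.85 ± 0.11), which held and was -0.17 counted from T-cell identity. Pdcd1, which encodes PD-1, was at 7.42 and 7.47 against 7.21 to 7.92, close to background in both groups (-0.15 ± 0.36, adjusted p = 0.782). Havcr2 (TIM-3), which macrophages and dendritic cells also carry, rose by 2.31 ± 0.56, but by 0.89 with the covariate; the call was lost without day 18 (2.55) and without day 120 (2.08). Tigit and Ctla4 differed between the arrays: Tigit was at 8.04 on day 18 and 9.58 on day 120 against 7.87 to 8.30, and Ctla4 at 9.26 and 10.52 against 8.72 to 9.45. Neither was called with both arrays, and each was called higher without the day 18 array (1.54 and 1.30).

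Of 23 genes associated with the memory cell surface and its stress response, 10 rose and 1 fell (median 0.72), 5 were called without day 18 and likewise without day 120, and 4 rises held. The list median was 1.11 without naive 34 and 36, 0.45 without naive 33 and 35, and 0.19 with the covariate. Ahnak, a very large scaffold protein of calcium entry, was at 11.06 and 10.91 against 8.79 to 9.38 (1.81 ± 0.16, adjusted p = 1.34e-05), and the membrane protein gene Emp1 at 8.90 and 9.40 against 7.54 to 7.86 (1.50 ± 0.16). Ctla2a and Ctla2b, near-identical cathepsin inhibitor genes whose probes may share signal, rose by 1.59 ± 0.25 and 1.65 ± 0.19. Of 13 BCL2-family genes, 3 rose and none fell (median 0.13), with 1 call without day 120; Bcl2l1 and Pmaip1 lost the call with only the 6 arrays, as did Bcl6. Bcl2 itself was at 12.51 and 12.49 against 12.17 to 12.47 and not called (0.22 ± 0.16). Bcl2l1 (BCL-XL) was at 9.18 on day 18 and 10.74 on day 120 against 8.10 to 8.73, and its rise of 1.41 ± 0.29 was 0.62 and not called without the day 120 array. The BH3-only genes Pmaip1 (0.85 ± 0.14, held) and Bcl2l11 (0.79 ± 0.18, not called without day 120) rose. Bcl6, a repressor shared by memory and follicular T cells, was at 10.01 and 9.70 against 8.62 to 9.21 (0.96 ± 0.16, adjusted p = 0.00182) and held.

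Immediate-early genes, transcription factors that cells switch on within minutes of a stimulus or of handling, rose. With heat-shock genes included, 13 of 21 rose and none fell, and the median change was 0.82. With the covariate 2 genes were called, while the median change was 0.79. The median was 0.90 without naive 34 and 36 and 0.83 without naive 33 and 35. Nearly all calls were lost without day 120 and many without day 18, but each of these fits leaves 1 array in the group. Lost calls there do not show that the rise was confined to 1 day. The list's mean level was 10.90 on day 18 and 11.18 on day 120, against 10.02, 10.17, 9.89 and 10.25 on the naive arrays. Atf3, a stress-response factor, was at 11.67 and 12.36 against 8.23, 9.04, 8.47 and 9.47 (3.21 ± 0.42, adjusted p = 0.000315). Nr4a1, an orphan nuclear receptor induced by the T-cell receptor, was at 12.23 and 12.49 against 9.95, 10.75, 9.07 and 10.97 (2.17 ± 0.47). Nr4a3 was at 9.30 and 10.75 against 8.14 to 8.61 (1.74 ± 0.33), Fosb at 12.04 and 12.56 against 9.76 to 10.61 (2.04 ± 0.39) and Fos at 11.70 and 11.72 against 9.82 to 10.48 (1.44 ± 0.35). Atf3 and Nr4a3 held, and Atf3 was also called without day 18 and likewise without day 120 and with only the 6 arrays, where Nr4a1 and Nr4a3 were not. Without the day 120 array Nr4a1 (2.05), Nr4a3 (1.01), Fosb (1.78) and Fos (1.43) were not called, and Fos was not called without the day 18 array (1.45). The heat-shock gene Hspa1a, at 10.12 and 10.89 against 7.83, 10.62, 8.42 and 10.84, was not called. Macrophages and neutrophils also express these early genes, and the part of those cells in the rises was not tested beyond the fits above.

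The promoters of 3 of these genes are shown because they rose together and carry TGACGT, a part of the full TGACGTCA site bound by CREB and ATF factors. The choice was made after matches had been seen. They are taken from RefSeq (GRCm38.p6) as 300 bases, from 250 before the transcription start to 50 after it, 5′ to 3′ on the gene's strand. Capitals mark TGACGT or its reverse complement ACGTCA, which overlap in the full site. Atf3 lies at chr1:191183284-191183583 (minus strand), Nr4a3 at chr4:48045055-48045354 (plus strand) and Fos at chr12:85473640-85473939 (plus strand).
Atf3: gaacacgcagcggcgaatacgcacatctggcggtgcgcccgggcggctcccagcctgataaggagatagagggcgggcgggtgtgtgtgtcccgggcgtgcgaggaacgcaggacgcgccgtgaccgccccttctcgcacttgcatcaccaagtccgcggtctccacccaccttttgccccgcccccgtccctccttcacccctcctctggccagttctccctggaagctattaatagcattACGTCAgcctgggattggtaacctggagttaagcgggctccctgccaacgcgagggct
Nr4a3: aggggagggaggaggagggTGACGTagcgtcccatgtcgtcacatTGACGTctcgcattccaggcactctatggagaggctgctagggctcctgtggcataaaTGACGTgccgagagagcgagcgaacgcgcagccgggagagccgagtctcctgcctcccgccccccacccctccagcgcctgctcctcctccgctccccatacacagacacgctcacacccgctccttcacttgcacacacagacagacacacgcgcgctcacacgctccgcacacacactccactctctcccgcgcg
Fos: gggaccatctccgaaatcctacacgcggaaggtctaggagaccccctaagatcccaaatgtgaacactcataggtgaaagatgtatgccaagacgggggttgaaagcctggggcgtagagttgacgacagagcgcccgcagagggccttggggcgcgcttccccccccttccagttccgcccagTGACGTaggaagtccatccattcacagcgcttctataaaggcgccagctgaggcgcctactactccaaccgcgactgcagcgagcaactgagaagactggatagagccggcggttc
Nr4a3 carries 3 matches in this window, Atf3 and Fos 1 each. Of the 13 genes of the list that rose, 11 matched the promoter table by symbol. Of these, 4 carry TGACGT or ACGTCA in at least 1 listed promoter, as do 8.37% of all 27025 genes in that table. A match is a description of the letters. Fosb and Nr4a1, which also rose, have neither TGACGT nor ACGTCA in this window. The shorter half-site TGACG is present in the Fosb window and its reverse complement CGTCA in that of Nr4a1. Such shorter matches were not counted.

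Of 23 interferon-stimulated genes, 7 fell, none rose and 16 were not called (median -0.37). The count was 1 without day 120, 3 without naive 33, 4 without naive 35 and 0 with only the 6 arrays. Ifit1, an antiviral RNA-binding protein, was at 10.01 and 9.51 against 10.86 to 12.04 (-1.55 ± 0.26, adjusted p = 0.0019), held, and was -0.87 counted from T-cell identity. Isg20 and Rsad2 differed between the arrays after transfer: Isg20 was at 10.66 on day 18 and 13.23 on day 120 against 11.22 to 11.88, and Rsad2 at 10.19 and 13.06 against 9.38 to 10.46. Neither was called with both arrays; without the day 18 array both were called higher (1.73 and 3.24).

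Genes of dividing and growing cells gave few calls. None of 38 cell-cycle genes was called (median 0.35), with a list mean of 9.23 and 9.68 after transfer and 8.31, 9.58, 8.69 and 9.52 on the naive arrays, with the naive arrays in the order they have for the macrophage list. Leaving out 1 array gave 4 calls without naive 34, 2 without naive 36 and 2 without day 18. Leaving out naive 34 and 36, 23 of the 38 rose and 1 fell; leaving out naive 33 and 35, none was called. None of 18 cholesterol-synthesis genes and none of 21 ribosome-biogenesis genes was called, with medians of -0.15 and -0.14 (2 biogenesis genes without naive 34). Of 30 cytosolic ribosomal protein genes 6 fell (median -0.17), against 1 call without day 18, none without day 120, 2 without naive 33 or 35 and 10 without naive 36. Of 13 glycolysis genes 2 rose, of 17 fatty-acid oxidation genes 2 rose and 1 fell, and of 26 respiratory-chain genes 1 rose; leaving out day 120 gave 1, 1 and 0 calls in these lists, and glycolysis had 0 without naive 33 and the respiratory chain 0 without day 18, 2 without naive 34 and 3 without naive 36. The lysosomal lipase gene Lipa, which memory CD8 cells use to feed fat oxidation and which macrophages also carry, rose by 0.64 ± 0.12 (12.63 and 12.57 against 11.77 to 12.12) but did not hold.

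Several of the largest rises were genes best known from platelets and myeloid cells. Ppbp, a platelet chemokine, rose furthest of all called genes (10.71 and 12.47 against 7.03, 8.33, 6.83 and 8.04; 4.03 ± 0.62, adjusted p = 0.00102). Ptgs2, the inducible prostaglandin synthase of activated macrophages and neutrophils, followed (12.20 and 11.34 against 7.28 to 8.60; 3.76 ± 0.48, adjusted p = 0.000306). Cxcl2 (3.47), Il1b (3.45), Gm6377 (3.30), the scavenger receptor gene Cd36 (3.28), Acod1 (3.10) and Clec4d (2.65) also rose. All lay above every naive array, which for all but Il1b was part of the rule by which they were chosen. With the covariate they were 2.92 for Ptgs2, 1.96 for Cxcl2, 1.33 for Cd36 and 1.26 for Il1b; Il1b did not hold. With only the 6 arrays Ppbp, Ptgs2 and Acod1 were called and the other five were not. In this group 4 genes lost the call when 1 array was left out: Cxcl2 (2.64) and Il1b (2.93) without the day 18 array, and Gm6377 (3.17) and Cd36 (2.81) without the day 120 array.

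After transfer 22 of the 24 macrophage and monocyte markers lay above every naive array, as did 2417 of all 19938 genes. Of the 24 markers 8 rose and none fell (median 2.60). That count was 0 without day 18 and likewise without day 120, 4 without naive 33 or 35, 23 without naive 34 and 22 without naive 36. Cd14, a receptor for bacterial lipids, was at 10.59 and 10.28 against 6.67, 9.16, 6.79 and 8.77 (2.59 ± 0.60), and lost the call without day 18 (2.43) or day 120 (2.74). Csf1r, the receptor that macrophages need to survive, was at 13.20 and 13.21 against 8.09, 12.59, 9.15 and 12.59 (2.60 ± 0.96, adjusted p = 0.0734; 0.62 without naive 33 and 35), and was called higher without naive 34 (3.27) or 36 (3.27). Without naive arrays 34 and 36 all 24 rose. With the covariate none rose and 1 fell, but the covariate is the mean of these same 24 genes. That fit therefore cannot show a rise of the list as a whole. Dendritic-cell markers showed 8 rises among 14 (3 calls without day 18, 2 without day 120, 5 without naive 35) and MHC class II genes 4 among 9 (1 call without day 18, naive 33 or naive 35, none without day 120, 7 without naive 34). Ciita, the master regulator of class II genes, held (9.83 and 10.17 against 7.99 to 9.28; 1.39 ± 0.29), though not without the day 120 array (1.22). Of 14 neutrophil markers only Csf3r rose (8 calls without naive 34, 3 without naive 36), and S100a8, at 13.17 and 12.35, lay inside a naive range of 6.60 to 13.59. Csf3r lost the call without the day 18 array (2.04) and without naive 35 (2.48). With the covariate 8 of the 14 neutrophil markers were called lower. B-cell markers showed 5 rises and 2 falls among 15, with 1 call without day 18 and likewise without day 120, led by Blnk (9.33 and 9.48 against 6.77 to 8.27; 1.79 ± 0.29), an adaptor that myeloid cells also carry. Ms4a1 was among the rises although under background on all 6 arrays (0.36 ± 0.11), and it lost the call without day 18 (0.38) or day 120 (0.35), and without naive 34 (0.34) or 35 (0.29). Cd4, which macrophages and dendritic cells can carry as well, was at 9.53 and 9.48 against 7.48 to 8.80 (1.20 ± 0.27), lost without day 18 (1.17) or day 120 (1.22), while the regulatory T-cell factor gene Foxp3 was not called. How far each of these cells contributed to the other gene groups was not tested beyond the fits given.

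**Figure D4:**
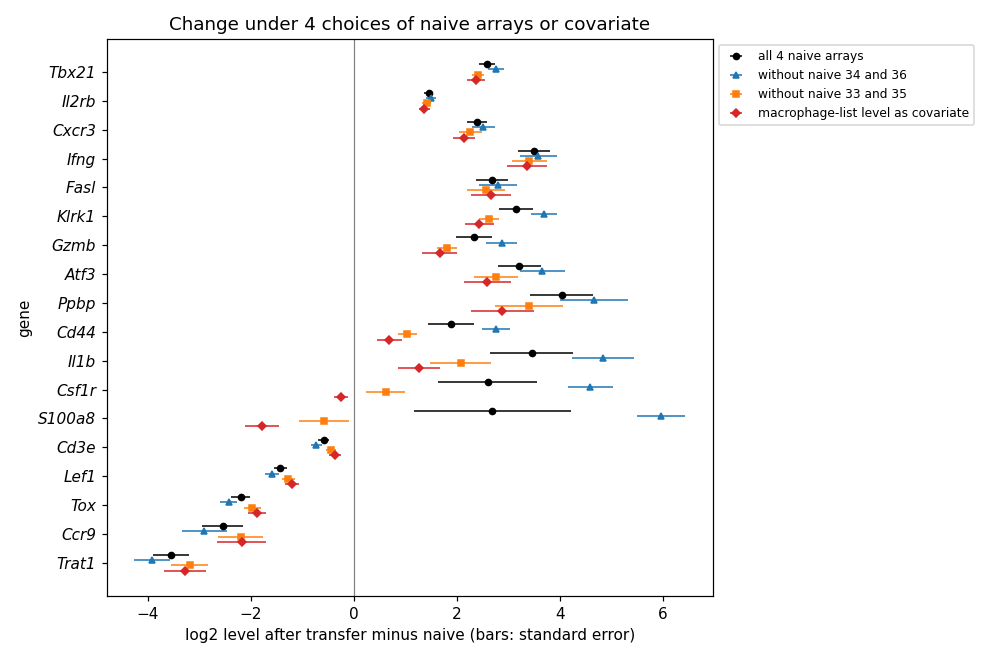
Log2 change after transfer against naive (horizontal axis; bars are the standard error) for 18 genes (vertical axis), with all 4 naive arrays, without naive 34 and 36, without naive 33 and 35, and with the macrophage list's level as covariate. Tbx21, Il2rb, Ifng, Lef1, Tox and Trat1 moved little, whereas Csf1r went from 2.60 to 0.62 and S100a8 from 2.69 to -0.58 without naive 33 and 35.

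The same control cells before transfer, after 72 h of activation (4 arrays), set these levels in context. The arrays after transfer are the same in both comparisons, so the 2 sets of differences are given side by side and not set against each other. Against the 72 h arrays, 2610 genes were higher after transfer (13.1%) and 4866 were lower (24.4%). Tbx21 and Klrk1 were at 11.11 ± 0.10 and 11.17 ± 0.12 at 72 h (SD, n = 4), and their differences from the cells after transfer were 0.02 ± 0.15 and 0.07 ± 0.33 (SE), not called. Ifng was at 8.58 ± 0.28 at 72 h, close to its naive mean of 8.33 ± 0.29 (SD, n = 4), and after transfer 3.25 ± 0.31 higher than at 72 h (adjusted p = 1.26e-06). Ccl5 and Klrc1 were likewise higher after transfer than at 72 h, by 3.07 ± 0.24 and 2.13 ± 0.37. Gzmb was at 13.06 ± 0.35 at 72 h, and after transfer 2.69 ± 0.35 lower, which leaves it between the naive and the 72 h level. Il2rb was 0.35 ± 0.09 lower than at 72 h (adjusted p = 0.00476). Pdcd1 was at 11.36 ± 0.84 at 72 h and 3.92 ± 0.36 lower after transfer, and Myb 2.85 ± 0.18 lower. Klf2 was at 9.06 ± 0.46 at 72 h and 2.71 ± 0.22 higher after transfer. Ccr9 was at 6.94 ± 0.78 at 72 h, under background, so its level after transfer lay between those of 72 h and naive cells. Tox and Trat1 were lower after transfer than at either earlier stage, by 2.03 ± 0.18 and 2.97 ± 0.34 against 72 h. Of the 38 cell-cycle genes 33 were lower after transfer than at 72 h, as were 18 of 18 cholesterol-synthesis genes and 11 of 13 glycolysis genes. The macrophage list was at 7.90 to 8.64 on the 72 h arrays, below both arrays after transfer, and 21 of its 24 genes were higher after transfer.

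The day 18 and day 120 arrays, 1 at each time, were close for most genes and have no replicate. Of 12377 genes above background on both, 120 were at least 2-fold higher on day 120 (0.97%) and 71 at least 2-fold lower (0.574%). Tbx21, Il2rb, Ifng, Klrk1 and Trat1 differed by no more than 0.23. The largest differences upward were genes of red-cell precursors: Bpgm, which makes the metabolite that loosens oxygen from haemoglobin (7.87 on day 18, 12.59 on day 120), Alas2, the erythroid enzyme of haem synthesis (8.93 and 13.62), Ube2o (9.05 and 12.89), Trim10 (7.31 and 10.99), the band 3 anion exchanger gene Slc4a1 (9.67 and 13.33) and Cdr2 (8.87 and 12.49). Their differences ran from 3.61 to 4.71, and on naive arrays the same 6 genes lay between 6.98 and 10.81. The mean of the 11 erythroid and platelet markers was 8.98 on day 18 and 10.77 on day 120. Isg20 (2.57) and Rsad2 (2.87), described above, differed in the same direction as these genes.

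The largest differences downward were Prg4 (10.38 on day 18, 7.61 on day 120), the follicle chemokine gene Cxcl13 (10.12 and 7.63), the fibronectin gene Fn1 (11.88 and 9.54), Arg2 (10.47 and 8.37), Il1f9 (11.34 and 9.26) and the long non-coding RNA Mirt2 (10.34 and 8.27), by -2.07 to -2.76. Neutrophil genes lay lower on day 120 too, with 5 of 14 markers at least 2-fold lower and 1, Mpo, at least 2-fold higher (10.14 and 11.39). Among the lower were Cxcr2 (11.82 and 9.94) and Csf3r (12.81 and 11.14). Arg2 and Mirt2 had been called as rises against naive cells (2.09 and 2.01), and both lost the call without the day 18 array (1.03 and 0.98). Bpifa2, a secreted salivary-gland protein, was among the 6 largest falls (-3.10 ± 1.01, adjusted p = 0.046) through day 120, where it was at 6.68 against 12.59 on day 18 and 11.57 to 13.60 in naive cells; without day 120 its change was -0.14 and not called. Its call was also lost without naive 33 (-3.04), 34 (-3.05) or 36 (-2.81). Among the genes described above, Fasl, Tigit, Ctla4, Bcl2l1 and Nr4a3 were at least 2-fold higher on day 120 too (1.46, 1.54, 1.26, 1.57 and 1.45), as were 4 of the 38 cell-cycle genes.

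**Figure D5:**
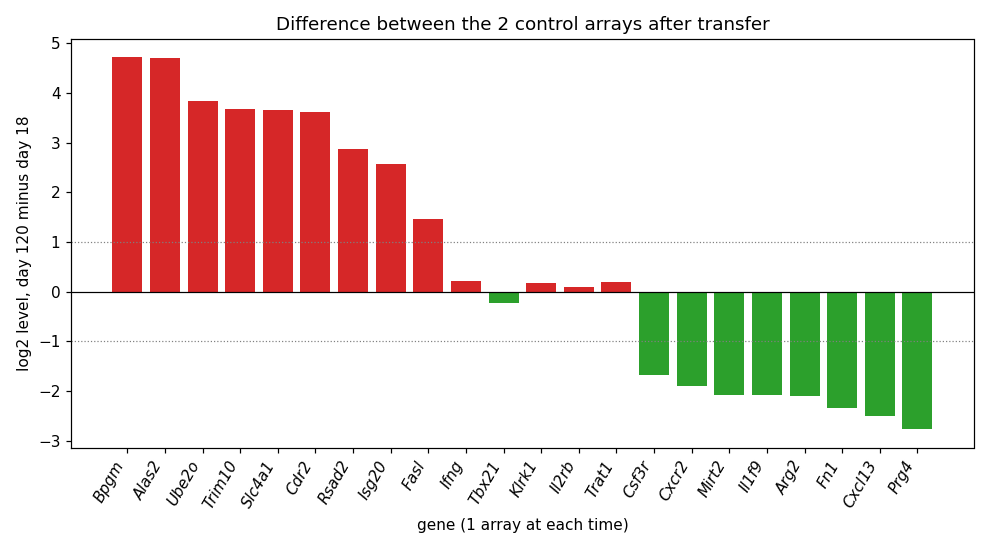
Log2 level on day 120 minus that on day 18 (vertical axis; 1 array each, dotted lines at 2-fold) for 22 genes (horizontal axis). Red-cell genes such as Bpgm (4.71) and Alas2 (4.69) stood highest and Prg4 (-2.76) lowest, while Tbx21 (-0.23), Ifng (0.21) and Il2rb (0.10) were close to 0.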

How the data were processed

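RNA of CD8 T cells was hybridised to Affymetrix Mouse Gene arrays, and the deposited values are on the log2 scale, summarised by the authors per probe set with Affymetrix Expression Console, per the submitters' processing notes; background correction and normalization were not named there. Of 35557 probe sets, 21789 carry 1 gene symbol in the platform annotation, 1621 several and 12147 none; only the first were used, the brightest for each gene (999 genes had a choice). Symbols were updated through RefSeq. Array medians were 7.69 to 7.89; no further normalization was applied. limma 3.58.1 (R 4.3.3) fitted group means of the 16 TCRP1A arrays together, with Benjamini-Hochberg adjustment over 19938 genes. So 6 arrays set the means and all 16 the spread. The others were control arrays at 72 h (4), Stat5ca arrays at 72 h (2) and Stat5ca arrays after transfer (4). The code was tested on simulated data. The number of arrays limits the precision.

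Genes named include the 12 largest rises and 12 largest falls that held and had no overlap between the groups. The 6 largest each way regardless and the 6 largest differences each way between days are also named. From each of 34 lists up to 6 members are named, called ones first, with defining uncalled members. In some lists a member that held was named ahead of a larger one. The comparison, lists and named members were chosen with earlier results of these data known. Coordinates are those of RefSeq's GRCm38.p6, not of the arrays. Summaries used Python 3.11.15 and pandas 2.3.3, figures matplotlib 3.10.9.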

Additional observations from a re-analysis of the deposited data

Results flagged for a closer look

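Among the genes named, 3 had the day 18 and day 120 arrays on opposite sides of all 4 naive arrays. The day 120 level was lower than the day 18 level by -0.45 for Prf1 and -1.32 for Cx3cr1, and higher by 2.57 for Isg20. These differences between 2 single arrays were not tested.

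In several genes 1 naive array stood apart from the other 3, with the share of the naive range taken by the gap to the nearest array in parentheses. Naive array 33 was lowest for Gzma at 8.18 (0.853), Myb at 9.79 (0.951), Bcl2l1 at 8.10 (0.922) and Prg4 at 6.50 (0.841). The mean level of T-cell cytokines and chemokines was also lowest there at 8.58 (0.922), as was that of cytokine receptors at 10.41 (0.936). Naive array 35 was highest for Klrd1 at 11.61 (0.914) and for the Y-linked Eif2s3y at 7.87 (0.896), and lowest for Ctla4 at 8.72 (0.865). These are 9 of 180 sets of naive values looked at (5%), and chance alone gives such a gap in about 1 in 20. The lower level of Gzma on array 33 decides its call, as given above.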

How the results depend on the processing

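The fit called 3538 of 19938 genes. The total was 323 when only the 6 arrays of these groups were fitted, 673 with the macrophage list's level as covariate, 5767 without naive arrays 34 and 36, 1718 without naive 33 and 35, and 742 with a 2-fold minimum; leaving out 1 array at a time gave 840 to 4693. Over the gene lists, 198 of 580 genes were called (129 higher and 69 lower), and 50, 68, 317, 130 and 90 under the same 5 settings, with 70 to 250 when 1 array was left out. S100a8, not called with all arrays (2.69), was called lower with the covariate (-1.79), as was Mpo (0.73 with all arrays, -2.58), which was also called lower without naive 33 and 35 (-1.72). The cause of these shifts was not tested, beyond fewer arrays in the first and a stricter rule in the 2-fold minimum. The total stayed within 1.5 times under the other settings: an intensity trend with robust prior (3325), all 19 arrays (2876), quantile normalization (3847), centred arrays (3149), no dim genes (3597), the mean of probe sets (3565), array weights (3205), and RNA integrity (2589) or Xist (2942) as covariate. The share of rises among calls was 44.7%, 42.3% after quantile normalization and 50.8% after centring. The 191 genes at least 2-fold apart between days were 192 to 233 under the 3 alternatives tried for them. No paired analysis was possible because the array numbers are not shared between groups. With 2 arrays after transfer, at 2 different times, spread between animals at one time is unknown, and signal near background cannot show small changes.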
